A study of Mus musculus with 48 samples.

Results

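Gene-desert accessible regions were taken as peaks of ATAC-seq signal on assembled chromosomes with no protein-coding gene body within 100 kb of either edge, in the mouse build GRCm38 (mm10). In all, 2649 of the 53758 peaks on placed chromosomes (4.93%) met this rule, while 34590 peaks overlapped a protein-coding gene body and 16519 lay outside one but within 100 kb. The other 110 of the 53868 peaks lay on unplaced scaffolds. The rule used positions alone and no signal. The nearest member lay 100120 bp from a gene and the farthest peak left out lay 99985 bp away; the 26 members within 1 kb of the limit had a median level of 47.7 normalized reads and the 22 peaks just outside it one of 28.7.

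The study profiled open chromatin in CD8+ T cells that carried the OT-1 receptor, which recognises an ovalbumin peptide, and Cas9, together with the CD45.1 marker. Every group also carried a lentiviral guide RNA with an ametrine reporter, and every group was isolated from tumours of B16-OVA, a melanoma line of the mouse that makes ovalbumin, on day 15 from young or aged host mice. The guide was Zfp219, Dusp5 or OTC, and OTC served as the reference. Cells were sorted by Slamf6 and Tim-3 into Tprog (progenitor exhausted, Slamf6 alone), Ttran (transitory, effector-like, both markers), Tterm (terminally exhausted, Tim-3 alone) and Ttad (age-associated dysfunctional, neither marker), the last from aged hosts alone. The aged arm thus held 12 groups (3 guides by 4 states) and the young arm 9 (3 guides by 3 states). Of these 21 groups, 15, including all 12 aged ones, held 2 libraries and 6 held 3, for 24 aged and 24 young libraries. Each library pooled sorted cells of several mice, 5000 to 50000 cells, so a p-value below measures only the spread between such pools, which may be partly technical. In a sorted bulk population, fewer cells of a kind with an open region and less opening per cell cannot be told apart. Each host age had its own sample sheet, with sample numbers starting again from S1, so age and sample sheet cannot be told apart.

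Peaks far from genes are usually distal regulatory elements, such as enhancers and the insulators bound by CTCF, or the start sites of long noncoding RNAs (lncRNAs). Distal elements are known to be more restricted to a cell type than promoters, and exhausted CD8+ T cells are known for an enhancer landscape of their own, set up with the factor Tox. Genes with wide deserts around them are often regulators of development, and several that steer T cells, among them Id2, Gata3, Bcl6 and Myc, are of this kind.

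Within the members, 70 peaks overlapped the promoters of 78 lncRNA genes, here the RefSeq stretch from 250 bases before to 50 bases after the start. Such a peak holds a stretch of known sequence, and 4 of these promoters are shown because their peaks differed by sorted state in the comparisons given further on; Morrbid, Gm40763, Gm40948, Ifngas1 and Gm31814 were picked for description after their values were seen. All 4 are printed 5′ to 3′ on the minus strand, from the RefSeq promoter table of GRCm38.p6. Capitals mark a match to the AP-1 motif TGANTCA, which Fos, Jun and Batf proteins bind, or to a core of the CTCF motif (CC, any 3 bases, AG, any 2 bases, then GGC); the Ifngas1 stretch held none of the 6 motifs searched and has no capitals.
Morrbid, chr2:128429302-128429601: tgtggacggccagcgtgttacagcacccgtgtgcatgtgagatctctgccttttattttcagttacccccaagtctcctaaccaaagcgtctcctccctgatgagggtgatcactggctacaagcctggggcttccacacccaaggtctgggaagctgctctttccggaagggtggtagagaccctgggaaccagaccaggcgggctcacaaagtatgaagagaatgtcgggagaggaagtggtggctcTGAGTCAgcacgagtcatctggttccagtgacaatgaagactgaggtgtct
Gm40763, chr10:111636320-111636619: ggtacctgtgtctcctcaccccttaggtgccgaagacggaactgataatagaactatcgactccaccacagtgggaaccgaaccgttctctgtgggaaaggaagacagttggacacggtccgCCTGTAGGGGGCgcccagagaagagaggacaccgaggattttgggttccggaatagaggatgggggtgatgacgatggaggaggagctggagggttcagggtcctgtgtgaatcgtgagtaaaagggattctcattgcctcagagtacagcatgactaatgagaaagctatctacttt
Gm40948, chr13:52083558-52083857: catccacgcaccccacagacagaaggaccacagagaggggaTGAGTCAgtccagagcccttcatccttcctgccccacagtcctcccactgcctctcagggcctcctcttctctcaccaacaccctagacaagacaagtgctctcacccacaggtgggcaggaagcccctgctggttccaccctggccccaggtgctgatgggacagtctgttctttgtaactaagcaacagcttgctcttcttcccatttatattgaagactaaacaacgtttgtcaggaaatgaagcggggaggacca
Ifngas1, chr10:118556476-118556775: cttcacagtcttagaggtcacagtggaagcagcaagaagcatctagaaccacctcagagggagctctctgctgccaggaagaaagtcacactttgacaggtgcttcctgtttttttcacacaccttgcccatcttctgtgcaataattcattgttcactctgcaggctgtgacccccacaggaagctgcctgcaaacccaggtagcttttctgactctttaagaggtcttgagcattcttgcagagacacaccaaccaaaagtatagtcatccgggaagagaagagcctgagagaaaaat

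Morrbid is a lncRNA known to restrain the neighbouring pro-apoptotic gene Bcl2l11 in short-lived myeloid cells, and Ifngas1 lies beside Ifng, the gene for interferon gamma. The motifs were searched on both strands, and no motif contains another. TGANTCA occurred in 15 of the 78 member promoters (19.2%), against 9.31% of 11587 lncRNA promoters and 7.81% of all 32817 promoters of the same length. The RUNX motif TGTGGTT occurred in 15 (19.2%), against 6.29% and 5.27%. The TCF/LEF motif ATCAAAG occurred in 7 (8.97%, against 4.67% and 3.73%), and CTCF's in 6 (7.69%, against 6.28% and 8.61%). The T-box motif AGGTGTGA occurred in 1 (1.28%, against 1.5% and 1.27%) and the NR4A motif AAAGGTCA in none (1.88% and 1.51%). These shares describe letters in the printed window. All 78 promoters overlapped a peak, while the other promoters were counted with or without one. Lying in a desert and being open therefore cannot be told apart in these shares. Open promoters outside the deserts were not counted. The median GC content of the 78 promoters was 49.7% and their median CpG number 4, against 52.7% and 7 over all promoters.

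The regions lay in 608 stretches between neighbouring protein-coding genes, called gaps here and named by the 2 genes that bound them. Of these gaps 267 held a single member, while 72 held at least 10 members each and together 1338 of the 2649 (50.5%). The median distance to the nearest gene body was 180166 bp (interquartile range 132975 to 285166 bp); 1124 members lay more than 200 kb away, 259 more than 500 kb and 55 more than 1 Mb. Another annotated gene, which was a lncRNA for 735, overlapped 904 members (34.1%), and 1745 overlapped none. Chromosomes 12, 13 and 10 held the most members, 225, 220 and 207, and chromosome 11 held 39, or 0.944% of its peaks against 10.3% on chromosome 12. Part of the desert belongs to antigen receptor loci, whose gene segments are not listed as protein-coding genes: 147 members lay in 5 such gaps, 74 of them at the T cell receptor alpha and delta locus (Tcra/Tcrd) and 60 at the immunoglobulin heavy chain locus (Igh).

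Across the series the libraries held 5638413 to 29942755 reads in peaks (median 14691505), from 5638413 to 16159054 in aged and from 6589023 to 29942755 in young libraries. Peaks over Cd3d summed to 1713 to 2406 normalized reads and those over Cd8a to 573 to 940 in every library. Of 25 markers of melanoma, myeloid, B, CD4 T, stromal and endothelial cells, 11 had no peak, among them Sox10, Dct, Tyr, Csf1r, Foxp3 and Cdh5. The other 14 had peaks in every library, some as strong as those of the T cell markers: Pmel (melanoma list) summed to 2053 to 2960 normalized reads, Pecam1 (endothelium) to 2432 to 3543, Zbtb7b (CD4 T cells) to 735 to 1197, Spi1 (myeloid) to 331 to 677 and Pax5 (B cells) to 280 to 672. The part of other cell types in the results was not tested. Accessibility does not show whether a guide cut its gene, so the guide labels were taken as given.

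Gene-desert peaks were weaker than other peaks and narrower than those in gene bodies. Their median width was 779 bp, against 989 bp in gene bodies and 768 bp within 100 kb, and their median level over all libraries was 55.0 normalized reads, against 125 and 66.2. All 48 libraries had a read in 2245 of the 2649 (84.7%, against 93.0% of all peaks), 2390 members had a mean of at least 10, and 46 reached 1000. They varied more over the 21 groups: the median ratio of a peak's highest to its lowest group was 3.4, against 2.72 for peaks within 100 kb and 2.2 for peaks in gene bodies; no test was made of this, and lower counts also spread more. Peaks over a lncRNA promoter had the highest median, 114, followed by 67.6 for peaks over another gene without a promoter and 46.9 for peaks over no gene.

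The share of each library's reads that fell in gene deserts was nearly constant, from 2.67% to 3.08%. The level of the median member differed between the sorted states of OTC cells. The median over the members of the group mean was 58.2 normalized reads in Tprog of either host age and 46.1 (aged) and 45.5 (young) in Tterm, with Ttran at 54.0 and 50.8 and aged Ttad at 53.7. Over all peaks the same medians were 94.4 and 95.1 in Tprog and 90.3 and 89.9 in Tterm. The medians of single libraries did not overlap between OTC Tprog and Tterm. Aged Zfp219 cells in Ttran, Tterm and Ttad were low, at 47.3 to 48.3, with Tprog at 55.7. In those low states every aged Zfp219 library held more reads in peaks than every aged OTC library. In Ttad they held 15700492 and 15723953, against 8059981 and 10929698. In Tprog the depths overlapped. Guide and depth cannot be told apart in the low states. Aged Dusp5 cells had another order, with Tprog lowest at 54.7, Ttran at 55.1, Tterm at 56.2 and Ttad at 57.6. Aged Dusp5 Tterm was also the group in which most members peaked, 297 (11.2%, against 6.51% of all peaks), followed by young Zfp219 Tprog with 292 (11%, against 8.58%). Young OTC Tterm was most often the lowest, for 271 members (10.2%, against 4.79%).

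**Figure D1:**
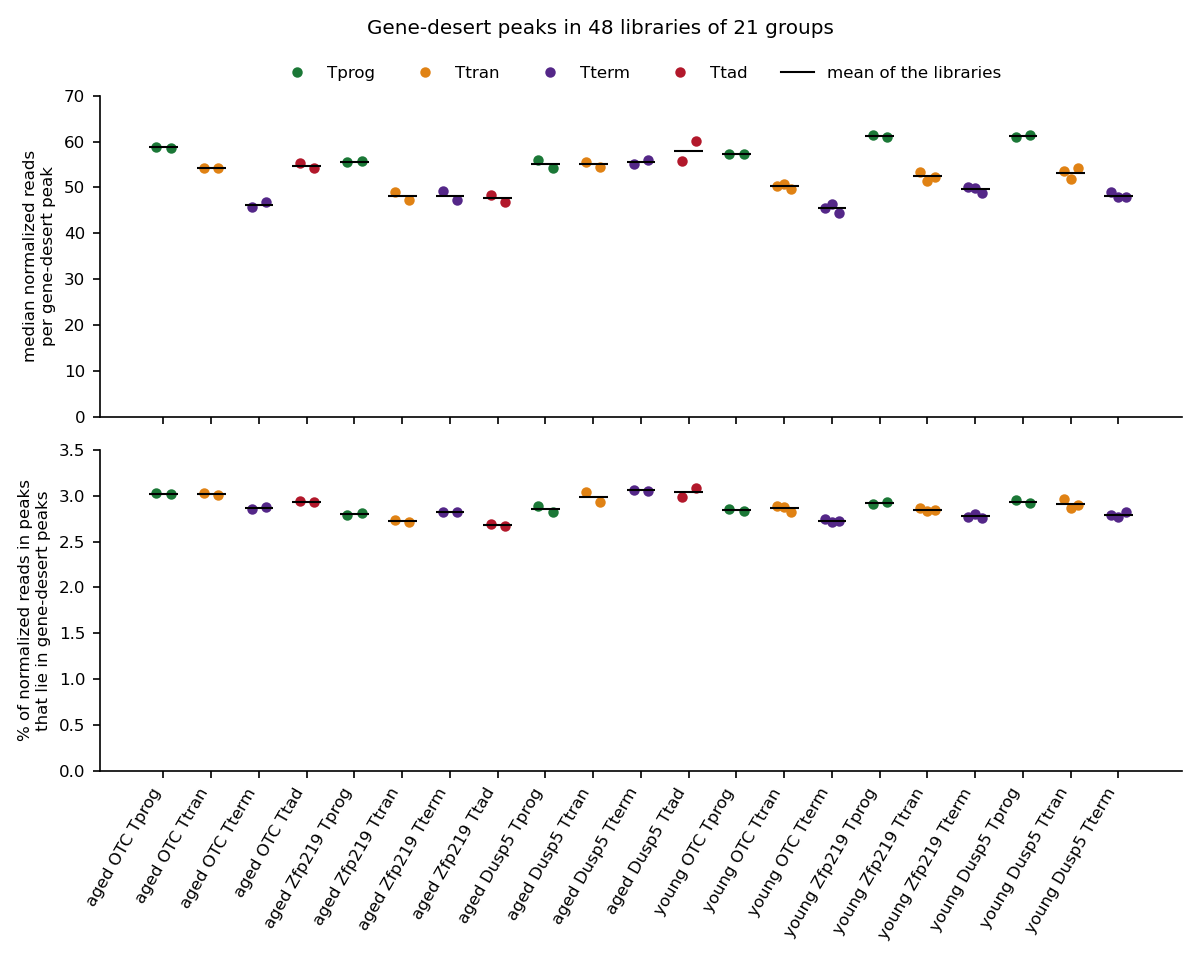
Median normalized reads per gene-desert peak (upper panel) and percent of a library's normalized reads in peaks that lie in gene-desert peaks (lower panel) for each of 48 libraries; points are libraries, coloured by state, and bars are group means. Tprog groups sit highest in the upper panel for OTC cells and Tterm lowest, while every share lies between 2.67% and 3.08%.

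The strongest member, chr14:124801564-124802237, lay between Fgf14 and the end of chromosome 14 and was the second highest of all peaks in 46 libraries and the third in 2. Young OTC Tprog had 10654 and 10911 normalized reads there, against 16574, 16717 and 17014 in young Tterm, which is a log2 difference of -0.64 ± 0.03 (± is the SE throughout; adjusted p by limma = 2.4e-33). Aged OTC Tprog, with 18932 and 18938, stood above aged Tterm, with 16887 and 16475 (0.18, adjusted p = 8.2e-06), so that the state difference itself differed with host age (0.82 ± 0.04, adjusted p = 6.3e-28). Quantile normalization, which fixes a peak of constant rank, left a state difference of 0.00. Young Tprog libraries of all 3 guides were the low ones, from 9150 to 12139.

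The next strongest members each followed a pattern of their own. A peak between Tcp10c and Tcte2, chr17:13550716-13553143, ranged from 882 to 5671 normalized reads. In OTC cells it was lowest in Tterm: aged Tterm had 1216 and 1315, against 2507 and 2466 in Tprog, 2644 and 2482 in Ttad and 3138 and 3005 in Ttran. These differences passed the test (Tprog minus Tterm 0.98 ± 0.07, adjusted p = 1.7e-22; Ttran minus Tterm 1.28 ± 0.07, adjusted p = 4.9e-30). With the Dusp5 guide in aged hosts the order was turned around, with 5496 and 5671 in Tterm, 3884 and 3996 in Ttad, 2222 and 2229 in Ttran and 1016 and 1009 in Tprog. Of these Dusp5 differences, the one in Ttad was tested by itself (0.62 ± 0.07, adjusted p = 5.3e-11), and that in Tterm was not. In young Dusp5 cells the order was that of the controls, with 882 to 943 in Tterm and 1549 and 1565 in Tprog. The other strong members lay between Ddhd1 and Bmp4 (chr14:45812336-45812862), in the Lncpint gap (chr6:31125350-31127344) and between Smim20 and Rbpj (chr5:53400672-53403288). Each was higher in aged than in young OTC cells, by 0.61 ± 0.04, 0.18 ± 0.04 and 0.16 ± 0.04 (adjusted p = 7.8e-23, 5.1e-05 and 0.00024).

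The comparison of Tprog with Tterm asks which regions distinguish the progenitor from the terminal end of exhaustion. In aged OTC cells 648 members were called (limma adjusted p under 0.05), 380 higher and 268 lower in Tprog, or 24.5% against 20.1% of all peaks. By direction, 14.3% of members were higher against 8.88% of all peaks, and 10.1% lower against 11.2%. In young OTC cells 885 were called (33.4% against 26.5%), 596 higher (22.5% against 13.9%) and 289 lower (10.9% against 12.6%). The median log2 difference of the members was 0.20 in aged and 0.24 in young cells, against 0.01 over all peaks in both. Among the 881 members with a mean of at least 100, the aged calls were 148 higher and 190 lower (16.8% and 21.6%, against 9.53% and 17.6% of all peaks as strong) and the young calls 221 and 175 (25.1% and 19.9%, against 16.5% and 18.5%). The aged share fell to 16.3% without the first and 16.2% without the second aged Tprog library.

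**Figure D2:**
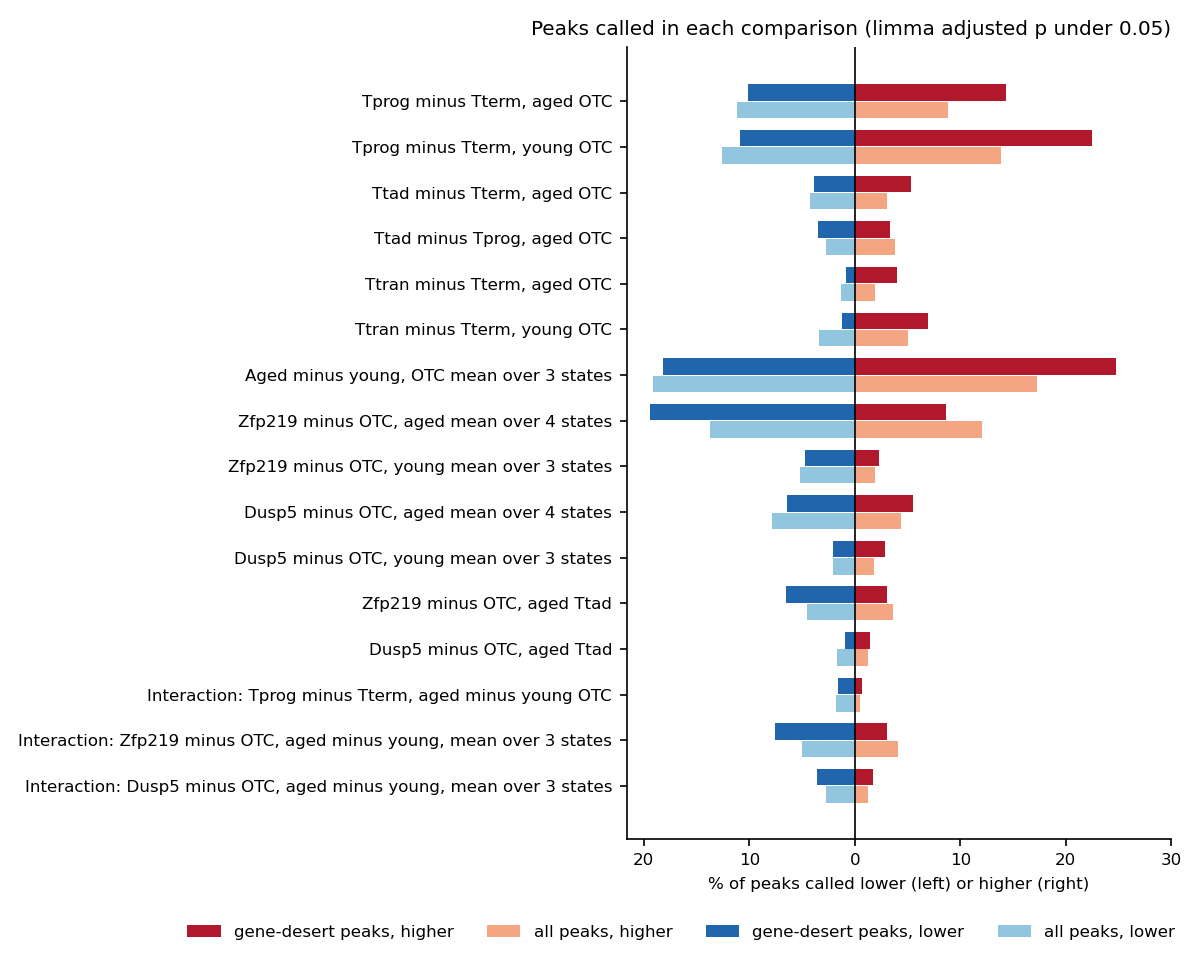
Percent of the 2649 gene-desert peaks (dark bars) and of all 53868 peaks (light bars) called higher (right) or lower (left) in each of 16 comparisons. Gene-desert peaks were called higher in Tprog than in Tterm more often than all peaks, 22.5% against 13.9% in young cells, and lower with Zfp219 in aged hosts, 19.4% against 13.7%.

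Among gaps with at least 3 called members, all calls went 1 way in 40 of 84 in aged and in 51 of 106 in young cells, and both ways in the other 44 and 55. The Id2 gap was divided. Id2 is an inhibitor of E proteins that favours effector over memory fates, and 38 members lay 112.1 to 359.3 kb from it. In aged cells 19 of these 38 were lower in Tprog and none higher (called log2 differences from -2.05 to -0.48), and in young cells 23 were lower and 1 higher; without single libraries the lower calls were 15 to 19 and 14 to 20, the 14 without the second young Tprog library. The other 12 members, 606.1 to 1090.1 kb from Id2, went the opposite way, with 6 higher and none lower at either age (1.03 to 2.91 in aged cells). All 12 lay nearer to Rnf144a, the gene at the other end of the gap, than to Id2. The limits of 400 and 600 kb between these stretches were set after the values were seen. The strongest Id2 member, chr12:25239318-25242308, had 1246 and 1275 normalized reads in aged OTC Tprog, 1844 and 1797 in Ttad and 2224 and 2164 in Tterm (Tprog minus Tterm -0.80 ± 0.07, adjusted p = 6.5e-16), and its young Tprog libraries, 1335 and 1252, likewise lay below the young Tterm ones, 1806 to 1938.

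In 4 other gaps most calls were higher in Tprog. Over all members, 14.3% were higher and 10.1% lower in aged cells (8.88% and 11.2% of all peaks). The young shares were 22.5% and 10.9% (13.9% and 12.6% of all peaks). Bcl6 encodes a repressor linked to memory and progenitor T cells: of the 16 members between Bcl6 and Lpp, 11 were higher in aged Tprog (0.40 to 2.32) and 10 in young, with none lower. The aged count was 6 without the first aged Tprog and 7 without the second aged Tterm library. Gata3 is a T cell lineage factor: of the 25 members between Celf2 and Gata3, 10 were higher in aged Tprog (0.66 to 2.72) and 16 in young (0.52 to 2.56), with none lower, although the aged count was 4 without the first aged Tprog library and 6 without any other of the 4 libraries compared. Between Cd83 and Jarid2, 10 of 23 were higher and 1 lower in aged cells, with 6 higher without the second Tprog or the first Tterm library, and 15 higher and 1 lower in young cells. Between Setbp1 and Gm36718, 6 of 7 were higher at either age, by 1.25 to 3.34 in aged cells, with 6 left in aged cells whichever library was removed.

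Rbpj, the DNA-binding effector of Notch signalling, had the opposite pattern. Of the 14 members between Smim20 and Rbpj, 6 were lower in aged Tprog (-1.17 to -0.28) and 11 in young (-1.28 to -0.21), with none higher; the young count was 7 without the second young Tprog library. Most calls were also lower beside Ets1, a lymphocyte ETS factor, with 10 of 31 lower and 1 higher in aged cells and 8 lower and 1 higher in young. In the gap of the lncRNA Lncpint (Klf14 to Mkln1) 12 of 30 were lower and 1 higher in aged cells, and 8 and 1 in young, 5 lower without the second young Tprog library. Beside Cblb, which encodes a ubiquitin ligase that restrains T cell activation, 10 of 30 were lower and 1 higher in aged cells, and 3 to 6 were lower without any 1 of the 4 libraries compared. The aged Ets1 count was 6 without the second aged Tterm library.

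**Figure D3:**
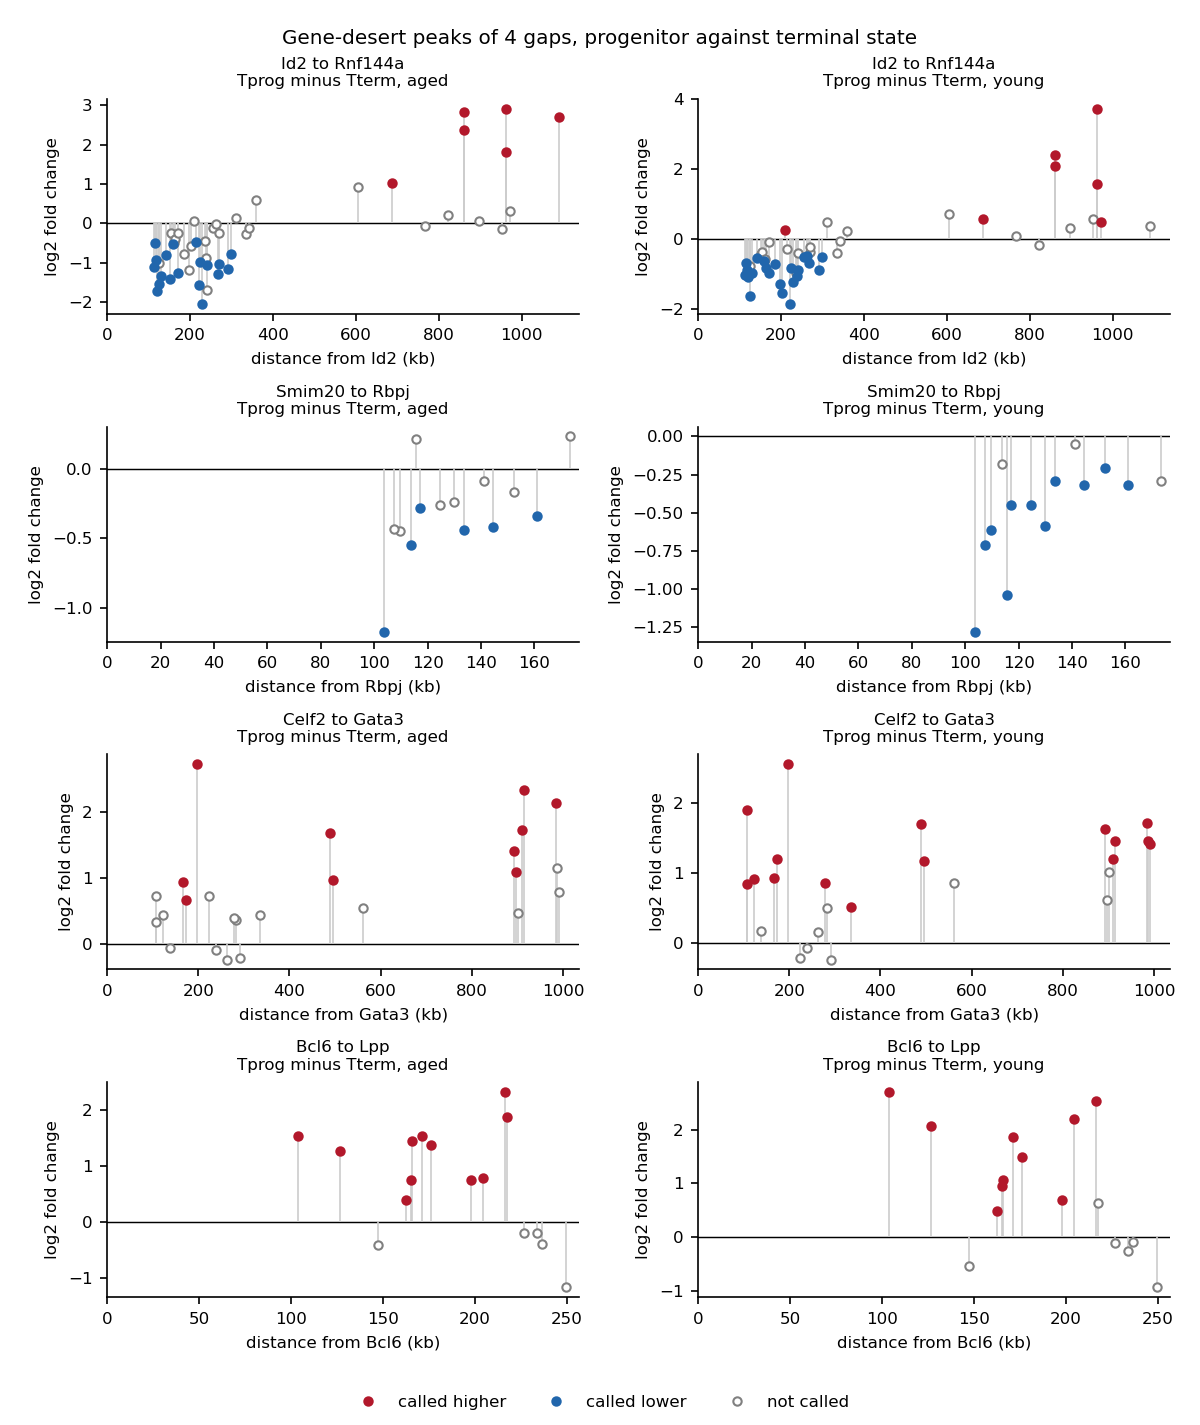
Log2 fold change of Tprog minus Tterm (vertical axis) for every gene-desert peak of 4 gaps by distance in kb from Id2, Rbpj, Gata3 or Bcl6 (horizontal axis), in aged (left) and young (right) OTC cells; red points were called higher, blue lower and open circles not called. The Id2 gap has lower points near Id2 and higher ones beyond 600 kb, which lie nearer to Rnf144a. The Rbpj gap has calls below 0 only, and the Gata3 and Bcl6 gaps above 0 only.

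The flanking genes were also read as 3 lists. Gaps beside 10 of 20 stem-like and naive T cell genes held 146 members. In aged Tprog 39 were higher and 14 lower (26.7% and 9.59%, against 14.3% and 10.1% of all members and 8.88% and 11.2% of all peaks). In young Tprog 44 were higher and 8 lower (30.1% and 5.48%, against 22.5% and 10.9% of all members and 13.9% and 12.6% of all peaks). The Bcl6 and Gata3 gaps gave 11 and 10 of the higher calls in aged and 10 and 16 in young cells. The Ets1 gap went the other way, with 10 of the 14 lower calls in aged and all 8 in young cells. Gaps beside 12 of 27 exhaustion and effector genes held 152, with 16 higher and 36 lower in aged (10.5% and 23.7%) and 27 and 43 in young cells (17.8% and 28.3%). The Id2 gap gave many of these: the other 102 members had 10 higher and 17 lower in aged (9.8% and 16.7%) and 20 of each in young cells (19.6%). Gaps beside 6 of 25 general lymphocyte genes held 152 as well, with 18 and 21 (11.8% and 13.8%), and 36 and 13 (23.7% and 8.55%). Of the strongest member beside each of the 28 genes, 3 were higher and 5 lower in aged Tprog (28.6% called) and 6 and 6 in young (42.9%). Of all peaks with a mean of at least 100, 27.1% and 35% were called. The median log2 differences of the lists in aged cells were 0.35, -0.11 and 0.11, against 0.20 over all members and 0.01 over all peaks. The lists were chosen with earlier results of these data known, and a peak's nearest gene need not be the gene it acts on.

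Several single peaks were open in 1 state and close to absent in another. A peak between Fam43a and Xxylt1, chr16:30769096-30769989, had 297 and 327 normalized reads in young OTC Tprog and 5.06, 12.6 and 5.62 in young Tterm (5.26 ± 0.41, adjusted p = 1.1e-19), and 223 and 199 against 26.1 and 11 in aged cells (3.55 ± 0.45, adjusted p = 4.4e-10). All 12 Tprog libraries, over guides and ages, lay above all 36 others there. Similar peaks lay between Gm5148 and Ankrd50, chr3:38282793-38284121, with 268 and 220 in aged Tprog against 14.2 and 5.50 in aged Tterm (4.62 ± 0.57, adjusted p = 2.8e-10), and between Klhl25 and Agbl1, chr7:76047735-76048511, with 145 and 167 in young Tprog against 3.79, 8.65 and 4.50 (4.63 ± 0.48, adjusted p = 1.4e-13). The reverse was seen between Basp1 and Myo10 at chr15:25517085-25518875. Aged OTC Tprog had 18.1 and 10.6 there, Ttad 73.8 and 86.2, Ttran 122 and 110 and Tterm 161 and 131 (Tprog minus Tterm -3.29 ± 0.27, adjusted p = 3.3e-18; young -2.98 ± 0.24, adjusted p = 2.9e-18). Ttad was thus between the ends, and above Tprog by 2.44 ± 0.27 (adjusted p = 1.2e-10).

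The lncRNA promoter peaks whose sequences are given above showed both directions. The Morrbid peak, chr2:128427974-128431306, had 933 and 1002 normalized reads in aged OTC Tprog, 1185 and 1278 in Ttad, 1895 and 1744 in Ttran and 2059 and 2081 in Tterm. Tprog was lower than Tterm by -1.10 ± 0.07 in aged (adjusted p = 1.1e-22) and by -0.70 ± 0.07 in young cells (adjusted p = 8.4e-15), and Ttad lower than Tterm by -0.75 ± 0.07 (adjusted p = 3.8e-13). The Gm40763 peak between Phlda1 and Krr1, whose promoter holds the CTCF match, had the same order, with 230 and 248 in aged Tprog against 642 and 589 in aged Tterm (-1.36 ± 0.15, adjusted p = 4.3e-12). The Gm40948 peak between Gadd45g and Diras2, with an AP-1 match as in Morrbid, went the other way, with 413 and 400 in young Tprog against 199, 229 and 181 in young Tterm (1.01 ± 0.13, adjusted p = 5.6e-10). Ifngas1 was also higher in young Tprog, with 150 and 154 against 34.1, 16.5 and 23.6 (2.63 ± 0.52, adjusted p = 3.4e-05). Aged OTC Tprog had 62.3 and 34.6 there, against 20.7 and 15.6 in Tterm. Over all 70 promoter peaks the calls in Tprog minus Tterm were 10 higher and 12 lower in aged and 12 and 12 in young cells. These are 31.4% and 34.3% called, against 20.1% and 26.5% of all peaks. The promoter peaks were strong, with a median of 114 normalized reads. Of all peaks with a mean of at least 100, 27.1% and 35% were called.

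**Figure D4:**
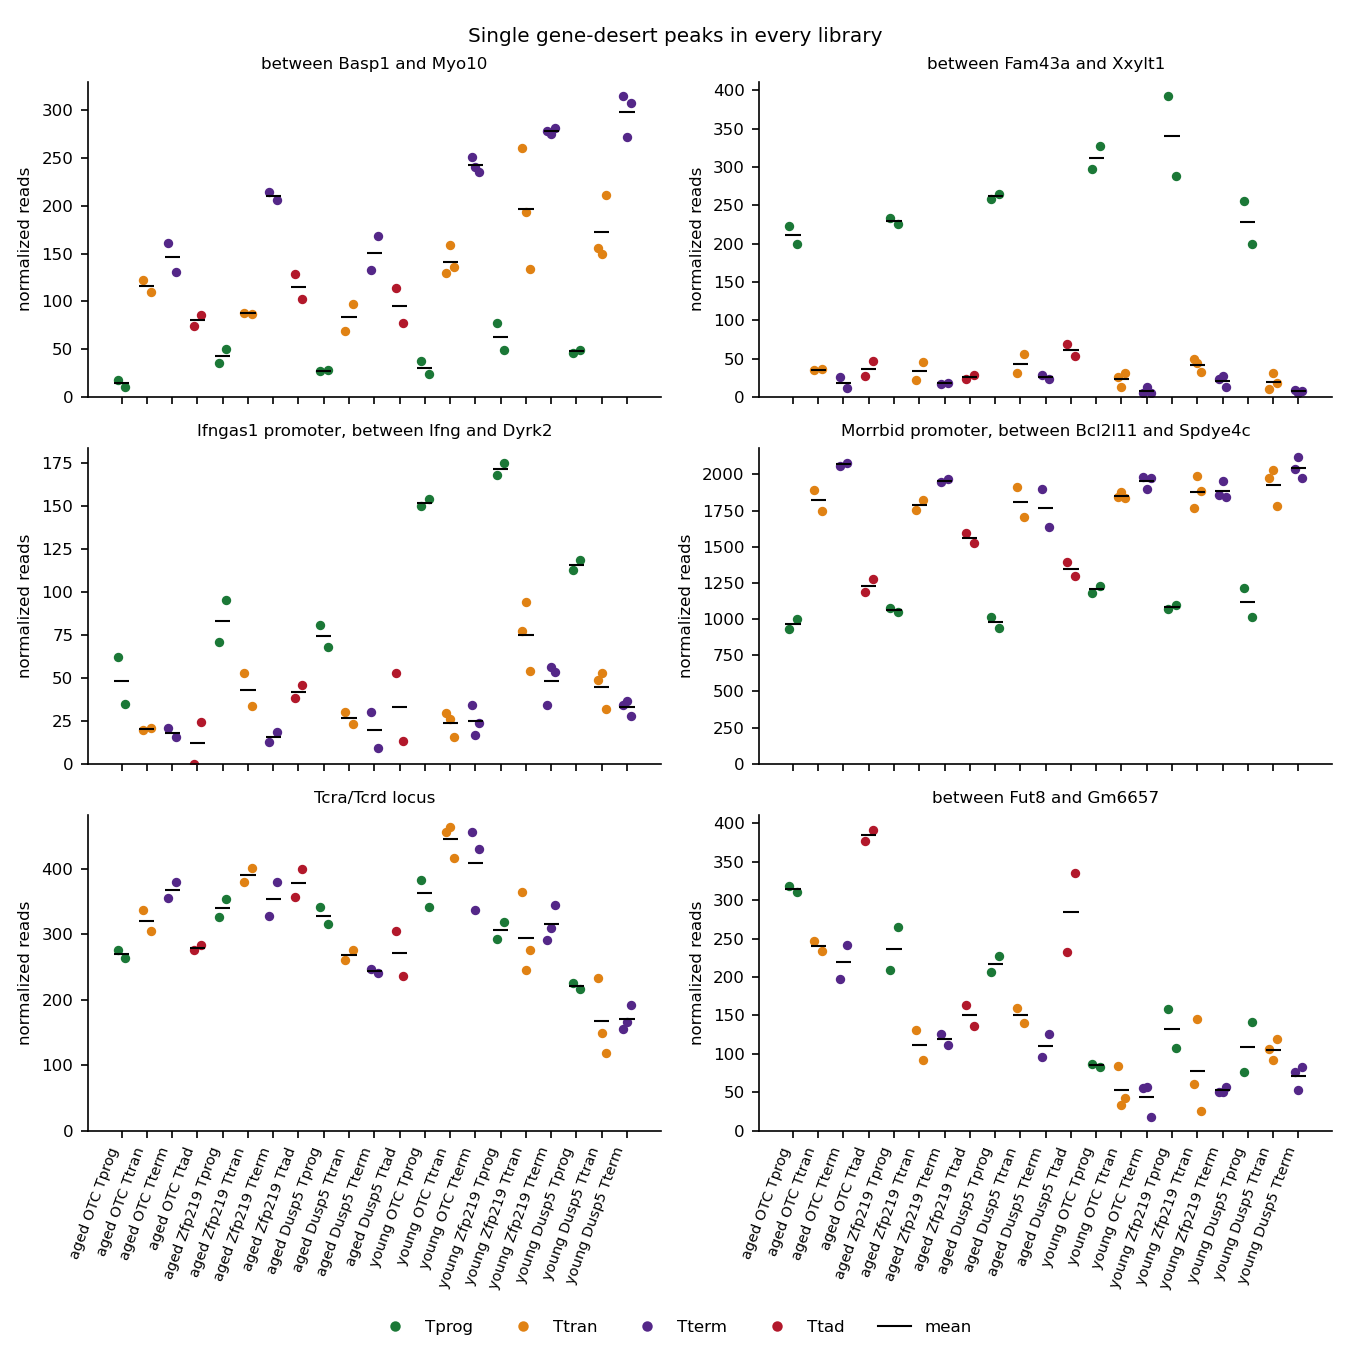
Normalized reads of 6 gene-desert peaks in each of 48 libraries, by group; points are libraries coloured by state and bars are means. The peak between Fam43a and Xxylt1 is high in Tprog alone, those at Morrbid and between Basp1 and Myo10 are lowest in Tprog, the Tcra/Tcrd peak is lowest in young Dusp5 cells, and the peak beside Fut8 is higher in aged than in young OTC cells.

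Ttad cells were compared with both ends of exhaustion in aged OTC hosts. Against Tterm, 243 members were called (9.17% against 7.28% of all peaks), 140 higher and 103 lower in Ttad (5.29% and 3.89%, against 3.02% and 4.26%). Against Tprog, 181 were called (6.83% against 6.55%), 89 higher and 92 lower (3.36% and 3.47%, against 3.82% and 2.73%). Both counts leaned on single libraries: the share against Tprog was 2.87% without the first and 3.47% without the second Tprog library and 3.89% without the first Ttad library, and that against Tterm was 4.45% without the first and 5.06% without the second Tterm library and 4.87% without the first Ttad library. Near Id2, 8 of 38 members were higher in Ttad than in Tprog (0.44 to 1.0) and 10 lower than in Tterm; the first count was 5 without the first Tprog and 4 without the first Ttad library, and the second 5 and 6 without the first and second Tterm library. The Setbp1 gap was higher in Ttad than in Tterm in 6 of 7 members (0.94 to 2.78) and the Bcl6 gap in 8 of 16, 4 without the first Ttad and 5 without the second Tterm library. At some single peaks, picked for a large difference from Tterm, Ttad was nearer to Tprog than to Tterm on the log2 scale. At chr15:51175797-51176760, between Trps1 and Eif3h, Ttad had 26.8 and 28.3, Tprog 46.4 and 52.3 and Tterm 0 and 3.67 (Ttad minus Tterm 3.73 ± 0.64, adjusted p = 1.7e-05). At chr13:28419696-28420263, between Prl5a1 and Sox4, the same states had 33.5 and 38.2, 41.9 and 43.5, and 1.09 and 8.25 (3.07 ± 0.50, adjusted p = 6.3e-06). Ttad was nearer to Tterm at a peak picked for a large difference from Tprog, chr8:65442917-65443827 between Smim31 and Marchf1. Ttad had 77.1 and 57.9 there, against 93.7 and 78.8 in Tterm and 20.4 and 19.5 in Tprog (Ttad minus Tprog 1.70 ± 0.34, adjusted p = 0.00032).

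Ttran cells were compared with Tterm, both of which carry Tim-3. In aged OTC cells 127 members were called (4.79% against 3.22% of all peaks), 105 higher and 22 lower in Ttran (3.96% and 0.831%, against 1.87% and 1.35%), and in young cells 216 (8.15% against 8.38%), 183 higher and 33 lower (6.91% and 1.25%, against 5.02% and 3.36%). The aged share was 1.43% and 2.15% without the first and second Tterm library and 2.87% and 3.13% without the first and second Ttran library, and 1.7% when the compared groups were fitted alone. A peak between Dusp10 and Hlx, chr1:184181910-184182746, had 96.3 and 110 normalized reads in aged Ttran against 19.6 and 39.4 in Tterm (1.85 ± 0.31, adjusted p = 2.8e-05), with Tprog higher still at 173 and 157. At the Fam43a peak young Ttran, with 25.6, 13.3 and 31.7, exceeded young Tterm (1.5 ± 0.36, adjusted p = 0.0028) but not the Tprog range.

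Of the 16 comparisons, host age gave the most calls. It averages 3 states in each arm, so more libraries enter it than a comparison of single groups, and smaller differences can be called. Called members with a log2 difference of at least 1 numbered 355 for age (3751 of all peaks). For Tprog minus Tterm they numbered 386 in aged (4903 of all peaks) and 541 in young cells (5938 of all peaks). In OTC cells averaged over Tprog, Ttran and Tterm, 1139 members were called (43.0% against 36.5% of all peaks), 657 higher in aged hosts (24.8% against 17.3%) and 482 lower (18.2% against 19.1%). Of the 131 gaps with at least 3 calls, 60 went 1 way and 71 both ways. The receptor gaps stood on the lower side, with 6 higher and 45 lower of 147 members, beside 651 and 437 of the other 2502. Of the 74 Tcra/Tcrd members 4 were higher and 25 lower (-1.32 to -0.21), and of the 60 Igh members none was higher and 19 lower (-1.07 to -0.27), 12 without the second aged Tprog library. OT-1 cells carry a rearranged receptor transgene in addition to this locus, and the age of the transferred donor cells was not used here.

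Other deserts were higher in aged hosts, beside 24.8% of all members called higher and 18.2% lower (17.3% and 19.1% of all peaks). Myc encodes a growth regulator, and the lncRNA Pvt1 lies beside it: of the 49 members between Myc and Gsdmc, 18 were higher in aged cells (0.17 to 3.0) and 1 lower, the higher ones 178.6 to 844.8 kb from Myc. Between Agtr1b and Tbl1xr1, 15 of 24 were higher (0.29 to 1.58) and none lower, beside Rbpj 9 of 14 and none (0.16 to 0.69), and beside Gata3 13 of 25 with 2 lower. Lower in aged hosts were 11 of 32 members between Foxo1, a factor of quiescent T cells, and Cog6 (-1.40 to -0.39), 7 of 15 between Prdm1 (Blimp-1, a factor of terminal effector fates) and Prep, 6 of 8 between Ifng and Dyrk2 (-1.46 to -0.66), and 11 of 20 on the X chromosome between Olfr1324 and Stk26, where the lncRNA Firre lies (-0.76 to -0.22); none was higher in these 4 gaps. With 1 library left out at a time the lowest counts were 8 in the Foxo1 and Firre gaps, 5 beside Prdm1 and 4 beside Ifng.

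Aged and young OTC cells differed widely at chr12:77603771-77604630, beside Fut8, which adds core fucose to glycans. Its OTC values were 318 and 311 in aged Tprog, 247 and 234 in Ttran and 198 and 242 in Tterm, against 86.7 and 83.0, 83.9, 33.6 and 42.2, and 55.0, 56.6 and 18 in the same states of young hosts (2.21 ± 0.19, adjusted p = 1.1e-17). No aged OTC library overlapped a young one. Peaks beside Tet2 (chr3:133665240-133666061, 2.09 ± 0.21, adjusted p = 4.1e-14) and beside Sema3d (chr5:12765429-12766079, 2.15 ± 0.25, adjusted p = 5.4e-12) were higher in aged cells too. The Gm31814 promoter peak in the Bcl6 gap, chr16:24193034-24194177, was higher by 1.95 ± 0.12 (adjusted p = 2.6e-26), rising from 185 and 210 in young to 500 and 418 in aged Tprog and from 51.8, 35.4 and 40.5 to 285 and 246 in Tterm. The reverse was measured between Spef2 and Prlr, chr15:10035392-10036360, with 46.4 and 61.2 in aged against 152 and 89.8 in young Tprog. The OTC group means there were 4.51 in aged against 26.5 in young Ttran, and 2.75 against 15.5 in Tterm. Averaged over Tprog, Ttran and Tterm, the difference was -2.30 ± 0.34 (adjusted p = 1.8e-08). By the same average, chr10:118627817-118628512 in the Ifng gap was lower in aged cells too (-1.46 ± 0.22, adjusted p = 2.6e-08).

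The strongest desert peaks beside the 28 list genes differed by host age in both directions. In aged OTC cells 9 were higher and 7 lower (57.1% called, against 36.5% of all peaks). Among peaks with a mean of at least 100, 58.6% of members and 45% of all peaks were called. The log2 differences of the 28 ran from -0.85 to 1.04, with a median of 0.06. The genes named here were chosen after these values were seen. Nr4a3 encodes a nuclear receptor induced by T cell receptor signals. The strongest member of its gap, chr4:47634695-47636051, lay 409 kb from Nr4a3 and nearer to Sec61b, at 151 kb. It had 454 to 597 normalized reads in aged and 163 to 288 in young OTC libraries of the 3 shared states (1.04 ± 0.09, adjusted p = 1.8e-18). Lower in aged cells was the strongest member between Runx1, a lymphocyte transcription factor, and Setd4, chr16:93245631-93247317. This peak lay 420 kb from Runx1 and 336 kb from Setd4. It had 95.1 and 71.9 in aged against 133 and 192 in young Tprog, and 261 and 325 against 502, 515 and 494 in Tterm (-0.85 ± 0.10, adjusted p = 6.5e-12). It also differed by state, with Tprog below Tterm by -1.81 ± 0.18 in aged (adjusted p = 5.6e-14) and -1.65 ± 0.16 in young cells (adjusted p = 3.1e-14). The Ifng peak, chr10:118599110-118600288, had 81.7 to 112 in aged and 135 to 227 in young libraries (-0.83 ± 0.13, adjusted p = 4.9e-08). The peak of Lef1, a factor of naive and stem-like T cells, was lower in aged cells by -0.75 ± 0.12 (adjusted p = 8.5e-08). Smaller differences were measured at other strong peaks. The strongest Eomes member, chr9:118374491-118375526, had 473 to 592 normalized reads in aged and 580 to 691 in young OTC libraries of the 3 shared states (-0.31 ± 0.06, adjusted p = 2.1e-05). The strongest member between Prdm1 and Prep, chr10:44820399-44822339, was also lower in aged cells (-0.26 ± 0.05, adjusted p = 4.3e-05), and that beside Satb1, chr17:52162108-52163547, higher (0.21 ± 0.05, adjusted p = 0.00018). That beside Gata3, chr2:9593599-9594651, passed none of the 16 comparisons, with 322 to 523 over all libraries, although its gap held many called members.

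The Zfp219 guide was compared with OTC within each host age, averaged over the states. In aged hosts 743 members were called (28.0% against 25.8% of all peaks), 230 higher and 513 lower (8.68% and 19.4%, against 12.1% and 13.7%). Among members with a mean of at least 100 the calls were 127 higher and 294 lower (14.4% and 33.4%, against 18.3% and 19.3% of all peaks as strong). In young hosts 186 were called (7.02% against 7.07%), 61 higher and 125 lower (2.3% and 4.72%, against 1.92% and 5.15%). In aged Ttran, Tterm and Ttad the Zfp219 libraries were all deeper than the OTC ones, so guide and depth cannot be told apart there. The Zfp219 and Dusp5 comparisons share the OTC libraries, and so does the age comparison. Aged OTC libraries enter the age comparison with a plus and the aged guide comparisons with a minus sign. Opposite directions by age and by guide in aged hosts are therefore not independent.

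Over all members, 8.68% were called higher and 19.4% lower with Zfp219 in aged hosts (12.1% and 13.7% of all peaks). In young hosts 2.3% were higher and 4.72% lower (1.92% and 5.15% of all peaks). The gaps below were picked partly for their number of calls. In aged hosts 20 of the 49 members of the Myc gap were lower with Zfp219 (-1.59 to -0.13) and 1 higher. Also lower were 10 of 24 between Agtr1b and Tbl1xr1, 11 of 30 in the Lncpint gap (with 2 higher), 8 of 23 between Cd83 and Jarid2 (1 higher) and 9 of 14 beside Rbpj. In young hosts 7 of the 14 beside Rbpj were lower, or 3 after quantile normalization. Higher in aged hosts were 15 of 20 members of the Firre gap on the X chromosome (0.25 to 0.72; none lower), 14 of 74 at Tcra/Tcrd (0.25 to 1.10; 3 lower) and 5 of 8 between Ifng and Dyrk2, where 3 were left without the first aged OTC Ttad library. Among single peaks, chr3:110399288-110399730 between Prmt6 and Amy2b had 5.10 to 20.7 normalized reads in the 8 aged Zfp219 libraries and 22.2 to 59.6 in the 8 aged OTC libraries (-1.70 ± 0.27, adjusted p = 5.5e-07). The peak between Lnx1 and Chic2, chr5:74897026-74897333, had 6.53 to 14.5 against 20.4 to 60.2 (-1.81 ± 0.29, adjusted p = 5e-07). In neither did the groups overlap. In young hosts chr6:31253132-31253720 in the Lncpint gap was higher with Zfp219, 36.0 to 69.0 against 10.9 to 34.1 (1.47 ± 0.23, adjusted p = 2.1e-06). A peak far from any gene, 663.6 kb from Got2 (chr8:96552028-96552979), was lower with Zfp219 at both ages (young -0.81 ± 0.12, adjusted p = 1.4e-06; aged -0.64 ± 0.12, adjusted p = 2.2e-05).

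The Dusp5 guide gave fewer calls. In aged hosts 316 members were called (11.9% against 12.2% of all peaks), 146 higher and 170 lower (5.51% and 6.42%, against 4.35% and 7.87%), and in young hosts 133 (5.02% against 3.82%), 77 higher and 56 lower (2.91% and 2.11%, against 1.80% and 2.02%). Of the 56 lower young calls 11 lay at Tcra/Tcrd, where 11 of 74 members were lower (-1.32 to -0.41) and none higher, from 113.3 to 468.7 kb of Dad1. At chr14:54059929-54062365 young Dusp5 libraries had 119 to 233 normalized reads and young OTC libraries 337 to 464, with no overlap (-1.14 ± 0.09, adjusted p = 9.7e-19). At its neighbour chr14:54063417-54064406 they had 34.4 to 61.6 and 80.2 to 145 (-1.32 ± 0.16, adjusted p = 1.7e-09). Aged Dusp5 and OTC libraries overlapped at both, with 236 to 341 and 264 to 379 at the first. Between Tnfsf18 and Fasl, a gene for a death ligand, 5 of 9 members were higher with Dusp5 in young hosts (0.31 to 0.67; 3 without the first young Dusp5 Tprog library), and between Grm3 and Gm5861 6 of 9 were lower (-0.70 to -0.31; 3 without the second young Dusp5 or the second young OTC Tprog library). The Got2 peak was lower with Dusp5 in young cells too (-0.97 ± 0.12, adjusted p = 2.5e-08), 62.7 to 125 against 137 to 188.

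Other Dusp5 differences were single peaks. At chr2:75208461-75209543, between Mtx2 and Gm50595, young Dusp5 libraries had 25.3 to 59.3 normalized reads and young OTC libraries 3.58 to 24.3 (2.00 ± 0.28, adjusted p = 3.5e-07), with no overlap. At chr5:119348163-119348797, between Med13l and Tbx3, aged Dusp5 libraries had 21.2 to 71.9 and aged OTC libraries 6.16 to 20.7 (1.66 ± 0.29, adjusted p = 1.3e-05), again with none. In aged hosts 9 of 30 members of the Lncpint gap were lower with Dusp5 and 1 higher, with 5 lower after quantile normalization, and 7 of the 38 near Id2 were lower. Over all members, 5.51% were higher and 6.42% lower (4.35% and 7.87% of all peaks).

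In Ttad alone, which occurs here only in aged hosts, Zfp219 against OTC gave 253 called members (9.55% against 8.23% of all peaks), 81 higher and 172 lower (3.06% and 6.49%, against 3.66% and 4.56%), and Dusp5 against OTC 62 (2.34% against 2.88%), 38 higher and 24 lower (1.43% and 0.906%, against 1.21% and 1.67%). The Zfp219 libraries of Ttad were deeper than the OTC ones, as given above. Both counts moved with single libraries. The Zfp219 share was 5.1% and 6.23% without the first and second OTC library and 4.53% and 3.74% without the first and second Zfp219 library. The Dusp5 share was 1.13% without the first OTC and 1.02% without the second Dusp5 library, and 0.302% when the compared groups were fitted alone. The Tcp10c peak described above fell with Zfp219, from 2644 and 2482 to 1456 and 1357 (-0.87 ± 0.07, adjusted p = 1.3e-18). The Morrbid peak rose from 1185 and 1278 to 1597 and 1527 (0.34 ± 0.07, adjusted p = 0.00077). At Ifngas1 the OTC Ttad libraries differed, with 0 and 24.6, and the difference from Zfp219 Ttad, 38.2 and 46.0, was lost without the first of them (adjusted p = 0.52).

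Interactions tested whether a difference itself differed with host age. For Tprog minus Tterm 59 members were called (2.23% against 2.32% of all peaks), 17 with a larger and 42 with a smaller value in aged cells (0.642% and 1.59%, against 0.512% and 1.81%); after quantile normalization they were 14 and 16. The share was 0.982% without the first and 1.32% without the second aged Tprog library, 1.21% and 1.43% without the aged Tterm libraries, and 1.36% and 1.13% without the young Tprog libraries. In the Cd83 gap 4 of 23 had a smaller value in aged cells and none a larger, 2 without the first aged Tprog library. In the Ifng gap chr10:118550144-118550838 had 102 and 132 in young Tprog against 48.7, 78.6 and 42.7 in young Tterm, but 14.7 and 20.4 against 39.2 and 40.3 in aged cells (-2.22 ± 0.50, adjusted p = 0.0038). At the Gm31814 peak the state difference was smaller in aged cells (-1.41 ± 0.30, adjusted p = 0.0014).

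For Zfp219 minus OTC 283 members were called (10.7% against 9.11%), 82 with a larger and 201 with a smaller value in aged hosts (3.1% and 7.59%, against 4.09% and 5.01%). The Myc gap held 8 of these, all smaller, and Tcra/Tcrd 12 larger and 2 smaller, with 7 larger without the first aged Zfp219 Tterm, the first aged Zfp219 Ttran or the second young Zfp219 Tprog library. At the peak between Prmt6 and Amy2b, young Zfp219 libraries overlapped young OTC, with 5.31 to 43.5 against 7.16 to 38.0, and the interaction was -2.51 ± 0.42 (adjusted p = 9.8e-06). For Dusp5 minus OTC 142 were called (5.36% against 4.0%), 47 larger and 95 smaller (1.77% and 3.59%, against 1.27% and 2.73%). Tcra/Tcrd held 8 larger and none smaller, with 0.95 ± 0.13 at chr14:54059929-54062365 (adjusted p = 1.3e-07), and the Grm3 gap 6 larger and none smaller, and the Tnfsf18 gap 5 smaller and none larger. At the Fut8 peak the interaction was -1.47 ± 0.27 (adjusted p = 9.3e-05): aged Dusp5 libraries of Tprog, Ttran and Tterm had 95.6 to 228 against 198 to 318 in aged OTC, and young ones 52.6 to 141 against 18 to 86.7. Over the 21 groups as a whole, 2179 members (82.3%) differed by limma's F test, against 75.9% of all peaks.

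**Figure D5:**
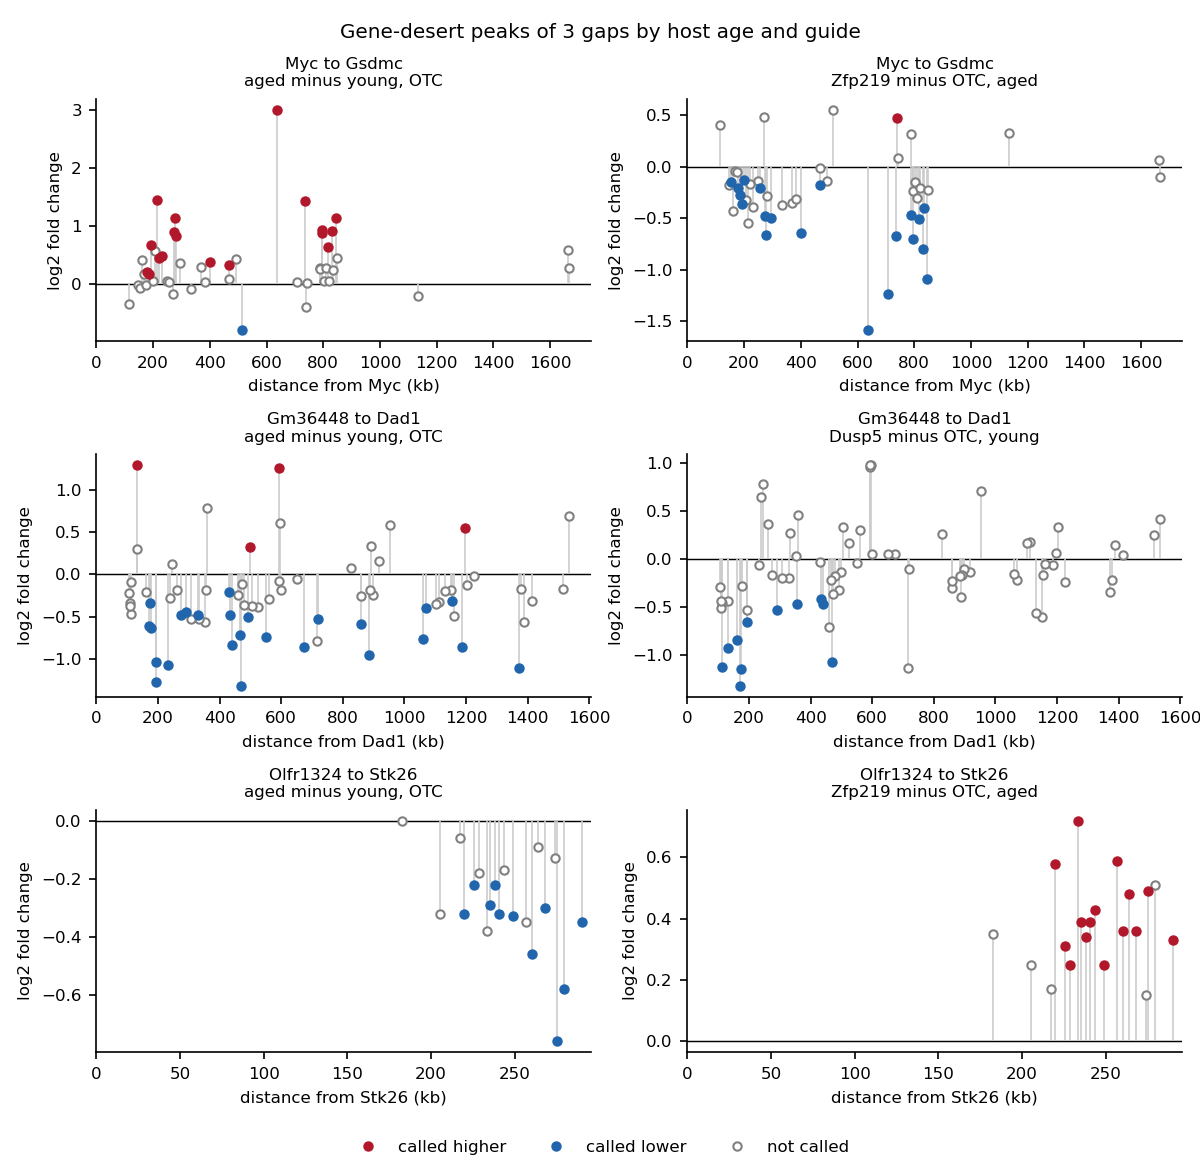
Log2 fold change (vertical axis) of every gene-desert peak of 3 gaps by distance in kb from Myc, Dad1 or Stk26 (horizontal axis); the left panels show aged minus young OTC cells and the right panels a guide against OTC (Zfp219 in aged hosts for the Myc and Firre gaps, Dusp5 in young hosts for Tcra/Tcrd). Red points were called higher, blue lower and open circles not called: the Myc gap has 18 higher and 1 lower by age and 20 lower and 1 higher with Zfp219, and the Firre gap 11 lower by age and 15 higher with Zfp219. Aged OTC libraries enter these 2 comparisons with opposite signs, so the opposite directions are not independent.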

How the data were processed

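ATAC-seq was measured in 48 libraries of 21 groups, assigned from the sample titles, with A and Y read as aged and young hosts. The deposited table holds a signal, the reads of each of 53868 peaks that the authors normalized by a size factor per library; per the file values, 100% of values were whole reads times 1 step per library (tolerance 0.01). Per the submitters' processing notes the tools were Bowtie2 2.2.9, Picard 2.8.0, MACS2 2.1.1, SAMtools 1.3.1 and DESeq2 1.28.1 with mm10; the shift of insertion sites, duplicate removal and whether starts count from 0 or 1 were not given in the sources used here, and coordinates are printed as deposited. Reads per library in peaks bound the precision (5638413 to 29942755), and replicates differed by more than counting noise (chi-square per degree of freedom 2.83 to 4.63), so none was merged.

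Distances were taken to the bodies of 21900 protein-coding genes of the RefSeq table for GRCm38.p6; 50.1% of these genes had an edge in a peak, against 7.94% to 8.18% with the table shifted. Tests were made with limma 3.58.1 (R 4.3.3) on log2(value + 1), with 1 mean per group over all 48 libraries, a trended prior and Benjamini-Hochberg adjustment over all 53868 peaks; fold changes are on this scale, which understates those of weak peaks. Calls were made where the adjusted p lay below 0.05. On simulated data for aged Tprog against Tterm (53868 peaks), 59.5% of 200 peaks changed 2-fold were recovered, with 8 false calls. The changed peaks had a mean of at least 10 reads, and no other peak was changed. Recovery where many peaks change, as in the measured data, was not simulated. The described peaks were the 5 strongest members; the called members with the largest changes in each direction whose groups did not overlap and whose mean was at least 10; the gaps with the most calls in 1 direction; and the strongest members beside the 28 genes of the flanking lists, counted together, with some named after their values were seen. The promoter peaks and the stretches beside Id2 were added after values were seen. The members and lists were chosen with earlier results of these data known. Alternatives were edgeR 4.0.16 on the recovered reads, quantile normalization, a pseudocount of 8, no weak peaks, only the compared groups, a replicate block, a 200 kb limit, members over no other gene and each library left out. A genome sequence was not used here, so peaks have no printed sequence beyond RefSeq promoters.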

Additional observations from a re-analysis of the deposited data

Results flagged for a closer look

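A difference that itself differed with host age, by the interaction term of the same limma fit, was called for 59 members in Tprog minus Tterm, for 283 in Zfp219 minus OTC and for 142 in Dusp5 minus OTC. These are 2.23%, 10.7% and 5.36% of the members, beside 2.32%, 9.11% and 4.0% of all peaks. Host age and sample sheet cannot be told apart in any of the 3.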

How the results depend on the processing

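The rule picked 94 differences with the largest changes, all called and, outside the interactions, between groups that did not overlap. None changed direction under any alternative run, but that choice itself makes a change of direction unlikely. Most kept their side of the threshold: 78 with the compared groups fitted alone, 84 with edgeR, 85 with a pseudocount of 8, 90 after quantile normalization and 92 with the replicate block. With the weakest 25% of peaks removed (mean up to 34.5 normalized reads), only 30 of the 94 were tested, and all 30 kept their call. With each library left out in turn, 36 of the 94 lost their call at least once (96 values against 802 that kept it). Among the shares of members called, the compared groups alone gave 1.7% for Ttran minus Tterm in aged cells, 0.302% for Dusp5 in Ttad and 3.51% for the interaction of state and age; edgeR gave 12.5% for Ttran minus Tterm in young cells and 1.51% for Dusp5 in Ttad; quantile normalization gave 1.13% and the 200 kb limit 0.801% for the interaction of state and age. The median share of normalized reads in members, 2.86%, became 0.916% with the 200 kb limit and 1.73% over no other gene, and, in alternatives chosen after seeing the data, 2.77% without receptor gaps and 2.69% without chromosome ends. With each library left out in turn, the percent of members called ran from 16.2 to 17.1 for Tprog minus Tterm in aged and 22.7 to 29 in young cells, 4.45 to 6.68 for Ttad minus Tterm, 2.87 to 5.13 for Ttad minus Tprog, 1.43 to 3.13 for Ttran minus Tterm in aged and 5.44 to 6.3 in young cells, 38.2 to 41.6 for age, 25 to 26.8 and 5.02 to 7.29 for Zfp219 in aged and young hosts, 9.59 to 11.5 and 3.62 to 4.76 for Dusp5, 3.74 to 6.23 and 1.02 to 2.27 for Zfp219 and Dusp5 in Ttad, and 0.982 to 1.66, 9.06 to 11.7 and 3.93 to 5.4 for the interactions of age with state, Zfp219 and Dusp5; the share differing over all groups ran from 80.7 to 83.8. Same-numbered libraries did not deviate together (correlations from -0.0184 to 0.017, none over 0.1 in 132 aged and 87 young pairs). Deviations within groups of 2 or 3 libraries also hold counting noise, so this cannot show whether same-numbered pools shared mice or handling. The labels do not say. With that number as a replicate block the share called was 35.3% for age, in place of 43.0%. It was 1.96% for the interaction of state and age, in place of 2.23%, and 77.2% for any difference, in place of 82.3%. The Firre gap then held 6 lower calls by age in place of 11. In groups of 2 libraries 59.5% of simulated 2-fold changes were recovered, with only 200 of 53868 peaks changed. The share recovered where many peaks change was not simulated. What an uncalled peak shows is limited, most of all for weak peaks.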
